A study of Mus musculus with 4 samples.

Results

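A block of distal mouse chromosome 9 was described, holding the genes whose array probes lay at chr9:121383743-123945284 (mm9, 2.56 Mb). It held 88 of the 41174 non-control probes and 58 of the 28146 gene names on the array, and the brightest probe stood for each gene. The members were taken by position, but the region had been picked because its genes were lower in the GR-depleted line in these same measurements. The differences between the lines within the block are therefore descriptions and carry no test. The 11 genes with 16 probes up to 1 Mb outside the block served as a contrast.

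EPH-4 is a non-malignant mouse mammary epithelial cell line. EV-50 is a stable EPH-4 line carrying the empty vector and a puromycin marker, with normal levels of the glucocorticoid receptor (GR), and shGR-19 is a stable line carrying the same marker and an shRNA vector against GR, labelled as depleted of the receptor. Both lines grew in serum-free DMEM/F-12 with 2 µg/ml puromycin and without glucocorticoids, and 300 ng RNA per array was labelled with Cy3 and hybridized to an Agilent Whole Mouse Genome array, 2 arrays per line and all 4 on 1 slide. Both lines are single clones. An effect of the shRNA and a difference between clones therefore cannot be told apart. Nothing in the labels says that the replicates were separate cultures, and the p-values measure only the spread between these arrays, which may be technical.

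In the classical account, the glucocorticoid receptor is a nuclear receptor that is held by chaperones in the cytoplasm until hormone binds. It then binds DNA at paired AGAACA-type sequences or acts through other DNA-bound factors. The paper on these lines reported GR at the Ch25h promoter of EPH-4 cells without hydrocortisone and not with it. A site search there predicted no glucocorticoid response element. The distal part of mouse chromosome 9 corresponds to a gene-dense part of the short arm of human chromosome 3. It carries housekeeping genes for RNA decay, lipid handling, membrane traffic and mitosis next to a cluster of chemokine receptor genes, which are chiefly used by leukocytes. Outside the immune system most of these receptor genes are silent.

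Scanner files, 1 per array, and a table of normalized values were deposited, and they did not match for the arrays labelled replicate 1. Across 21172 probes that were above background throughout, the SD of the log2 difference was 0.225 for the scanner array EV-50 replicate 1 against shGR-19 replicate 1, but 0.616 for the duplicates of EV-50 and 0.705 for those of shGR-19. For the columns of the value table this SD was 0.205 and 0.210 for duplicates and 0.532 to 0.542 for columns of different lines. The brightest probe of Nr3c1, the gene of GR, read 1.81 and 1.92 on the EV-50 scanner arrays, 1.46 on shGR-19 replicate 1 and -0.03 on shGR-19 replicate 2, and its difference in the value table was -1.94. The SD of the scanner log2 difference was 0.513 for EV-50 replicate 2 against shGR-19 replicate 2. Each scanner array thus lay nearer to the same-numbered array of the other line than to its own duplicate, against the labels. Most genes below are given from both sources and by array. The comparison of probes of a gene and the lists of genes elsewhere in the genome are given from the value table alone. Of 11 epithelial markers on the array, 10 were well above background on all 4 arrays, among them Krt8 and Krt18. Of these 1, Krt14, was called lower in the value table (-1.13), as 2.39% of all kept probes were. Krt14 had scanner signals of 27400 and 88729 on EV-50 replicates 1 and 2, and of 27217 and 38672 on shGR-19 replicates 1 and 2. Krt19, above background on 2 arrays and not kept, had a table difference of -2.76. Its signals were 15, 79, 15 and 6 in the same order. Of 8 mesenchymal markers 7 were kept and 2 were called higher, Pdgfrb (2.03) and Vim (1.82), as 1.87% of all kept probes were. Pdgfrb had scanner signals of 115 and 2005 on EV-50 replicates 1 and 2, and of 129 and 8899 on shGR-19 replicates 1 and 2. Those of Vim, a dim probe, were 43, 17, 53 and 67 in the same order. The summed signal of the mesenchymal markers was 13113 and 29252 on the EV-50 arrays and 12927 and 31635 on the shGR-19 arrays. Of 9 immune markers 4 were above background on all 4 arrays and 4, among them Ptprc, on none, with a summed signal of 278 to 355 in EV-50 and 286 to 349 in shGR-19. Their part in the values of the block was not tested.

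Scanner levels are given as log2 of the signal minus log2 of the 75th percentile of that array, so that 0 is the level of the 75th percentile, and always in the order EV-50 replicate 1, EV-50 replicate 2, shGR-19 replicate 1, shGR-19 replicate 2. Differences from the value table are the mean log2 value of the 2 shGR-19 columns minus that of the 2 EV-50 columns. Each probe of that table was centred on its median over the 4 columns, so that the values in the middle of the order mirror each other around 0. In whole-line RNA, fewer cells with a transcript and less transcript per cell cannot be told apart.

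Genes of the block were lower in shGR-19 over an inner stretch from C85492 to Fyco1 (chr9:121890741-123747464, mm9, 1.86 Mb), while no gene of the block on either side of it was more than 2-fold lower. This stretch was marked out after the values were seen. It held 36 genes, of which 23 were well above background on all 4 arrays and 9 on none. Among the 23, the median difference in the value table was -1.42 (quartiles -1.54 and -1.06), which is 2.68-fold lower in shGR-19, and 17 were more than 2-fold lower. Over all 36 genes the median was -1.15 with 27 lower, over all 58 genes of the block it was -0.30 with 43 lower, and over the 16755 kept genes of the array it was 0.018.

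The proximal stretch of the block, from Trak1 to Fam198a, had a median of -0.17 over its 18 genes, and the distal stretch, from Xcr1 to Ccr3, had a median of -0.13 over its 4 genes. Genes outside the block had a median of -0.26 over 11 genes, and none of these 3 sets held a gene more than 2-fold lower. The last gene before the inner stretch, Fam198a, lay 3.18 kb from C85492, and the first gene after it, Xcr1, had its nearest probe 14.0 kb from the last Fyco1 probe. Fam198a was dim, with a mean signal of 12.9, and the dim inner genes Zfp105, Clec3b and NAP046039-1 were not 2-fold lower either. The proximal end of the stretch is thus not placed by Fam198a. Xcr1, with a mean signal of 74.0, was well above background on all 4 arrays and had a difference of 0.37. The inner gene D9Ertd402e, with a mean signal of 63.2, had -1.28. A decrease was thus read at such a signal, and Xcr1 showed none. The nearest proximal gene above background on all 4 arrays, Higd1a, lay 129 kb from C85492.

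**Figure D1:**
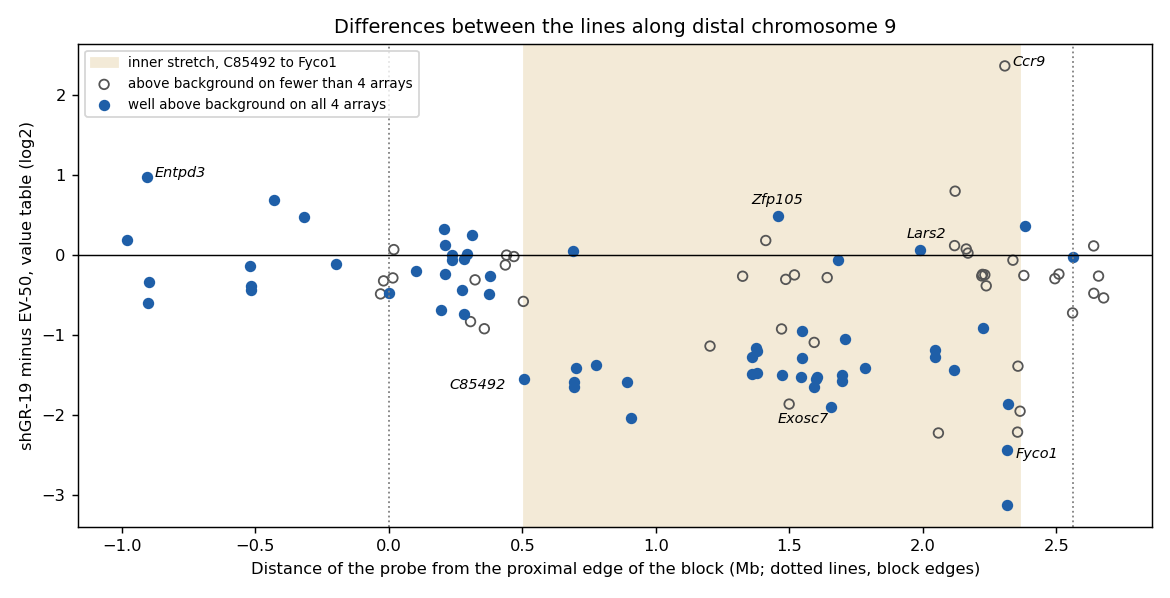
Value-table difference, shGR-19 minus EV-50 (log2, y axis), for each probe of the block and its neighbours, against the distance of the probe from the proximal edge of the block in Mb (x axis). Filled points were well above background on all 4 arrays and open points on fewer, and the shaded inner stretch holds every point below -1, with Ccr9 at 2.37 as its highest point.

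In the value table, 24 of the 59 kept block probes were called lower in shGR-19 (more than 2-fold, adjusted p below 0.01, limma), where 2.39% of the 24436 kept probes of the array were called lower. All 24 lay in the inner stretch. Only Ccr9 was called higher, where 1.87% of kept probes were. Without the test, 29 of the 59 block probes were more than 2-fold lower, against 3.49% of the array, and 42 had both shGR-19 columns below both EV-50 columns, against 35.3%. Since the block was picked on this contrast, nothing is read from these counts. At an unadjusted p below 0.05 by limma there were 41 of the 59 block probes, and 11829 of the 24436 kept probes of the array. With any 1 column left out, the median difference of the 36 inner genes in the value table ran from -1.22 to -1.06.

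The scanner files gave 0 called probes in the block and 0% over the array in either direction with limma. At an unadjusted p below 0.05 there were 209 probes on the array and 0 of the 59 in the block. Without shGR-19 replicate 1, the median difference of the 36 inner genes on the scanner arrays was -1.22, against -0.67 with all 4 arrays. By array, the inner stretch was low on shGR-19 replicate 2 alone. Its 23 genes had a median difference of -1.37 for the replicate 2 arrays (shGR-19 minus EV-50) and of -0.00059 for the replicate 1 arrays. The same median was 0.054 for EV-50 replicate 2 minus EV-50 replicate 1. More than 2-fold lower were 28 of the 59 kept block probes in the replicate 2 arrays, against 3.16% of the array, and 0 of the 59 in the replicate 1 arrays, against 1.11%. Both shGR-19 arrays lay below both EV-50 arrays for 15 of the 59, against 6.14%. On shGR-19 replicate 2, 26 of the 59 kept block probes, all in the inner stretch, were more than 2-fold below each of the other 3 arrays, against 1.58% of the array. It was the lowest array for 45 of the 59, against 32.1%. Across the 21172 probes, the difference in the value table correlated with the scanner difference of the arrays labelled replicate 2 (r = 0.911) and hardly with that of the arrays labelled replicate 1 (r = 0.0431). These probes share the same 4 hybridizations and are not independent replicates.

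**Figure D2:**
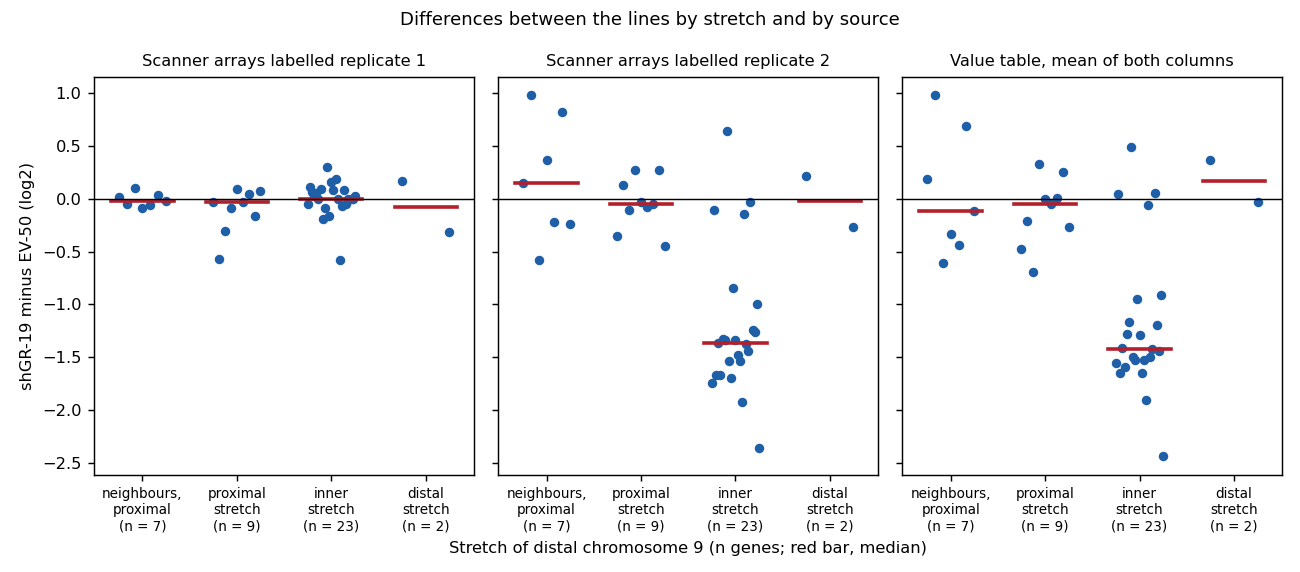
shGR-19 minus EV-50 difference (log2, y axis) for each gene well above background on all 4 arrays (points) with the median (red bars), by stretch of chromosome 9 (x axis), from the scanner arrays labelled replicate 1, those labelled replicate 2, and the value table. The 23 inner genes have a median of -0.00059 in the left panel, -1.37 in the middle panel and -1.42 in the right panel.

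The largest decreases among genes well above background on all 4 arrays were those of Fyco1, Exosc7, ENSMUST00000140497, Snrk and Abhd5. Fyco1, an adaptor that links autophagosomes and late endosomes to kinesin, read -1.37, -1.29, -1.34 and -3.65 on the scanner arrays (probe at chr9:123699055-123699114, mm9). The first 3 arrays lay within 0.08 of each other and shGR-19 replicate 2 stood apart below them. In the value table Fyco1 had 1.18 and 1.14 in the EV-50 columns and -1.14 and -1.41 in the shGR-19 columns, a difference of -2.44 (SE 0.11) or 5.42-fold. Its columns did not overlap between the lines. The other kept probes of Fyco1 gave -3.13 and -1.87, or 8.74-fold and 3.66-fold, and the latter was not called.

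Exosc7, a ring subunit of the RNA exosome, read 1.98, 1.92, 1.98 and -0.01 (chr9:123039657-123039948, mm9). Its difference in the value table was -1.90 (SE 0.06), with 0.91 and 0.99 in EV-50 against -0.91 and -0.99 in shGR-19. Snrk, a kinase related to AMPK, read 2.01, 2.37, 2.07 and 0.70 (chr9:122076701-122076760, mm9). The value table gave it -1.65 (SE 0.05), and a second probe of the gene gave -1.59. Abhd5 (also CGI-58), the coactivator of the triglyceride lipase Pnpla2, read -0.13, -0.81, -0.07 and -2.48 (chr9:122277200-122277259, mm9). Its difference was -1.59 (SE 0.16), and that of its other probe was -2.04. For these 3 genes the scanner array labelled shGR-19 replicate 1 lay with the EV-50 arrays, and shGR-19 replicate 2 lay below all of them.

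The promoters of these genes are shown because the genes are low together and because GR acts on DNA. RefSeq promoters of 300 bases (around the start of transcription, GRCm38.p6) were found for 4 of the 5, and ENSMUST00000140497 had no entry. The first listed promoter of each gene is printed 5′ to 3′ on the gene's strand, in lower case with GC boxes (GGGCGG on either strand, CCGCCC when on the other) in capitals. They lie at chr9:123851850-123852149 (minus strand) for Fyco1, chr9:123112981-123113280 (plus) for Exosc7, chr9:122117016-122117315 (plus) for Snrk and chr9:122351366-122351665 (plus) for Abhd5.
Fyco1: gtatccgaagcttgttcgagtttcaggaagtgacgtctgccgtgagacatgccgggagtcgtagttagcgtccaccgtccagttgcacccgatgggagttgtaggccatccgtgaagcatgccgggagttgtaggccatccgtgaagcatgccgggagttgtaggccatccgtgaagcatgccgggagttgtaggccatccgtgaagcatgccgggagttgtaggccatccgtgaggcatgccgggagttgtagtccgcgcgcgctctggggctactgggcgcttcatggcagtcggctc
Exosc7: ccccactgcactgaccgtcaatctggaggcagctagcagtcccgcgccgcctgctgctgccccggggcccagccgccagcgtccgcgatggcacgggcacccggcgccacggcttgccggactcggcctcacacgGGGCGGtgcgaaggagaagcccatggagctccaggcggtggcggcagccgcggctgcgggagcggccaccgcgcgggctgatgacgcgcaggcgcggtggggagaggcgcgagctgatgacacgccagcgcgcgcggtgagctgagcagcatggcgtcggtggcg
Snrk: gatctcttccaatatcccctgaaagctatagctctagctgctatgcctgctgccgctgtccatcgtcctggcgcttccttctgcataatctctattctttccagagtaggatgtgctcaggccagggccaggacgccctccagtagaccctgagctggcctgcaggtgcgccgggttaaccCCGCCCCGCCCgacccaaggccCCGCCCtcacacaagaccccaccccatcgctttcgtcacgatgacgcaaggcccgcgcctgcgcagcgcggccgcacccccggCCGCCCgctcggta
Abhd5: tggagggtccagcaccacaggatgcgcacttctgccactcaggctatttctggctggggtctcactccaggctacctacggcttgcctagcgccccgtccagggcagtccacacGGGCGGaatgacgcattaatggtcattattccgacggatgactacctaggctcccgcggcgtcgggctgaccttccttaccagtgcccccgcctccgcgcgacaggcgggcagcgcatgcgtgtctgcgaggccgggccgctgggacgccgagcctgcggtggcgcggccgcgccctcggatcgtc

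The glucocorticoid response element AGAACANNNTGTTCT, in which the hexamer AGAACA faces its own complement, was in none of these 4 windows, and neither were AGAACA alone nor the ETS site CCGGAAG on either strand. The GC box was there 4 times in Snrk, once in Exosc7 and once in Abhd5, and not in Fyco1. The Fyco1 window instead repeats a run of 22 bases, gggagttgtaggccatccgtga, 5 times, and no other of the 27025 promoters held that run. Of 39 block genes with a promoter, 19 (48.7%) held a GC box against 35.9% of all promoters, 4 (10.3%) held AGAACA against 19.02%, 5 (12.8%) held the ETS site against 9.12%, and 0 held the full element against 1 promoter of all. Among all 20 inner genes that were more than 2-fold lower, whether above background or not, 14 had a promoter. Of these 14, 8 (57.1%) held a GC box, 1 (7.14%) held AGAACA and 1 (7.14%) held the ETS site. Their median GC content was 62.7%, that of the block promoters 58.7% and that of all promoters 52.7%. A match is a run of letters in a window and not a bound site.

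Genes of lipid, glycan and membrane enzymes lay along the whole inner stretch. C85492 (Pomgnt2 in RefSeq), a glycosyltransferase of the O-mannose glycan of dystroglycan and the proximal edge of the stretch, read 2.59, 3.0, 2.54 and 1.26 (chr9:121890741-121890800, mm9). Its difference in the value table was -1.56 (SE 0.05). Sacm1l, a phosphoinositide phosphatase of the endoplasmic reticulum, read 1.57, 1.41, 1.56 and 0.15, with a table difference of -1.44 (SE 0.05). Zdhhc3, a palmitoyltransferase of the Golgi, read 1.46, 1.27, 1.64 and -0.26, with a table difference of -1.53 (SE 0.08). Ano10, of the anoctamin family of channels and scramblases, read 2.65, 2.71, 2.68 and 1.34, with a table difference of -1.41 (SE 0.13). Each of these 4 was more than 2-fold lower in the table, and on the scanner arrays shGR-19 replicate 2 alone was low.

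The next 4 inner genes encode membrane and scaffold proteins, and shGR-19 replicate 2 was the lowest array for each. Cdcp1, a transmembrane protein phosphorylated by Src kinases, read 1.73, 2.05, 1.66 and 0.68, with a table difference of -1.50 (SE 0.07). Tmem158, a membrane protein first described as induced by Ras, read 1.12, 0.47, 1.20 and -0.97. Its table difference was -1.42 (SE 0.07), although the EV-50 scanner arrays themselves lay apart. Limd1, a LIM domain scaffold, read 3.44, 3.91, 3.44 and 2.66, with a table difference of -1.19 (SE 0.06). Lztfl1, which regulates the traffic of the BBSome to cilia, read 2.24, 2.69, 2.24 and 1.70, with a table difference of -0.91 (SE 0.05). Lztfl1 was thus lower by less than 2-fold, as 1.88-fold.

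Among genes of the nucleus and of cell division, Kif15, a kinesin of the mitotic spindle, read -0.80, -0.56, -0.50 and -2.25, with a table difference of -1.53 (SE 0.07). Zfp445, a KRAB zinc finger protein of genomic imprinting, read -1.36, -1.73, -1.26 and -3.07, with a table difference of -1.17 (SE 0.12). Zfp105, another zinc finger gene, read -4.05, -4.49, -4.25 and -3.84, with a table difference of 0.49 (SE 0.32). Zfp105 was a dim gene whose shGR-19 columns, -0.03 and 0.74, overlapped with the EV-50 columns, 0.03 and -0.31. These genes lie between Abhd5 and Exosc7. At the mean signal of Zfp105, 31.3, a decrease might not be seen, so that no gap in the stretch is read from it.

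D9Ertd402e (Tcaim in RefSeq), which encodes a mitochondrial protein, read -2.90, -2.85, -2.90 and -4.17, with a table difference of -1.28 (SE 0.13). Lars2, the mitochondrial leucyl-tRNA synthetase, read 10.01, 9.81, 9.96 and 9.78, with a table difference of 0.06 (SE 0.07). The annotation of the Lars2 probe also lists 28S ribosomal RNA, and its mean signal was 522702, so that its level cannot be assigned to Lars2. Clec3b, which encodes the plasminogen-binding protein tetranectin, read -4.00, -3.96, -4.58 and -4.10, with a table difference of -0.06 (SE 0.13). It was dim on every array, and its columns of the value table overlapped.

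Several inner transcripts have no role that could be named. Tmem42, a transmembrane protein gene, read 0.10, 0.17, 0.26 and -1.17, with a table difference of -1.29 (SE 0.05). The unnamed gene 1110059G10Rik read -0.60, -0.76, -0.69 and -2.29, with -1.50 (SE 0.06) in the table. The transcript ENSMUST00000140497 read -1.97, -2.55, -1.89 and -4.03, with -1.65 (SE 0.06). All 3 had shGR-19 replicate 2 as the lowest array and were more than 2-fold lower in the table. ENSMUST00000058187 read -0.21, -0.03, -0.37 and -0.88, with -0.95 (SE 0.08), just short of 2-fold. The dim transcript NAP046039-1 read -3.85, -3.58, -3.73 and -3.68, with 0.05 (SE 0.16), and did not separate the lines.

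**Figure D3:**
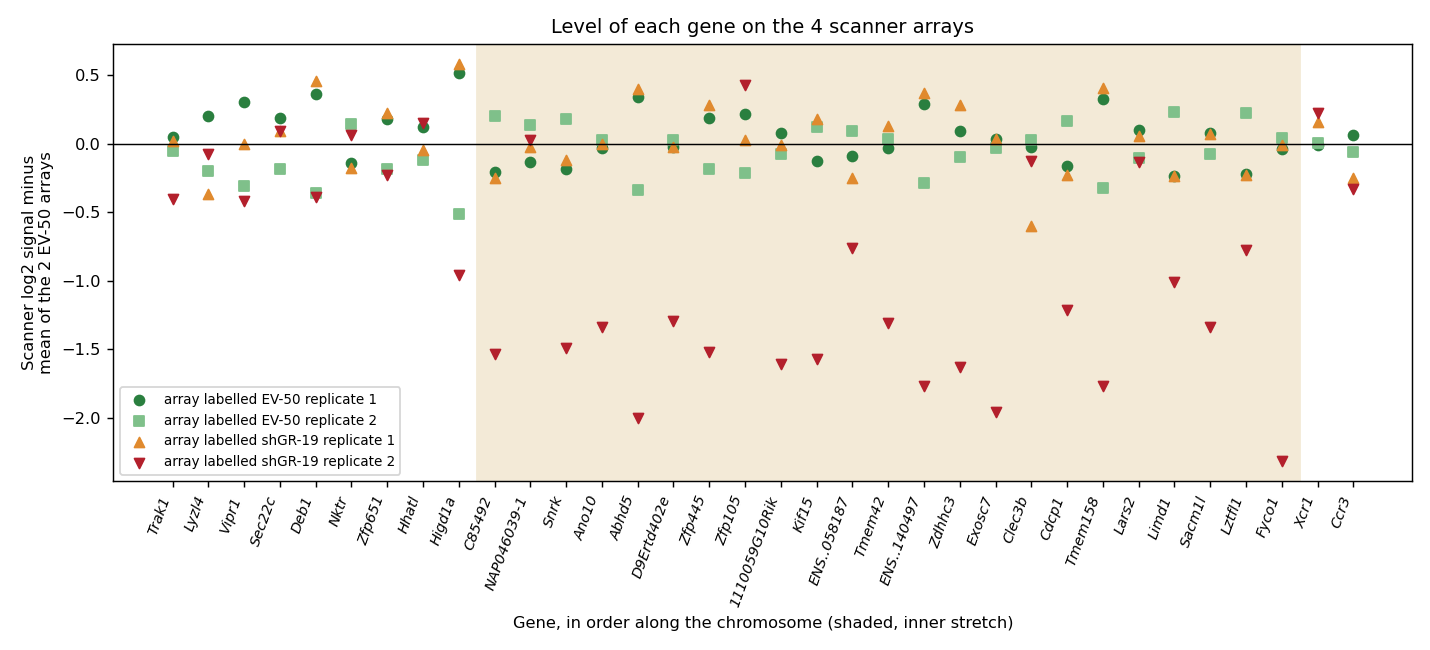
Scanner level of each block gene well above background on all 4 arrays, as log2 signal minus the mean of the 2 EV-50 arrays (y axis), with genes in order along the chromosome (x axis) and the inner stretch shaded. shGR-19 replicate 2 is the lowest of the 4 in 20 of the 23 inner genes. In these 23 genes shGR-19 replicate 1 minus EV-50 replicate 1 runs from -0.58, for Clec3b, to 0.30.

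Of the 23 inner genes, 6 were not more than 2-fold lower in the value table: NAP046039-1, Zfp105, ENSMUST00000058187, Clec3b, Lars2 and Lztfl1. The mean signals of Zfp105, Clec3b and NAP046039-1 were 31.3, 31.5 and 42.4, and the median EV-50 signal of the inner probes was 70.1. Of the 13 other inner genes, 4 were above background on 1 to 3 arrays. AK036777 read -5.25, -4.66, -5.01 and -6.54 on the scanner arrays with -2.23 in the table. Slc6a20b, an amino acid transporter gene, had -0.04 and -0.12 in EV-50 against 0.04 and 1.40 in shGR-19, a difference of 0.80 (SE 0.52) that rested on 1 column.

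In the inner stretch 9 genes had several kept probes, 21 in all, and every probe was lower in shGR-19. The range between probes of a gene had a median of 0.22 and ran from 0.021 for Zdhhc3 to 1.26 for Fyco1. In 5 of the 9 genes all kept probes were called lower. D9Ertd402e and Zfp445, whose brightest probes were not called, each had another probe that was. In the proximal stretch 4 genes had 10 kept probes, of which none was called. There the probes of Nktr ran from -0.74 to -0.05 and those of Sec22c from -0.23 to 0.33, so that the spread between probes was as large as the differences themselves.

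**Figure D4:**
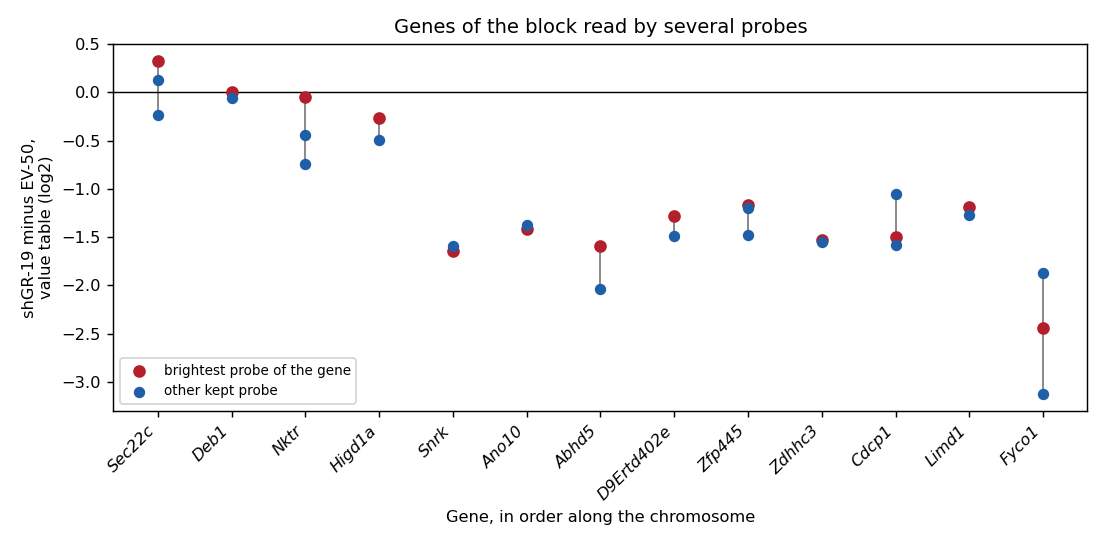
Value-table difference, shGR-19 minus EV-50 (log2, y axis), for every kept probe of block genes with several kept probes, in order along the chromosome (x axis), with the brightest probe of each gene in red. The probes of the 9 inner genes, Snrk to Fyco1, all lie below -1, and those of the 4 proximal genes, Sec22c to Higd1a, lie between -0.74 and 0.33.

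Of 7 chemokine receptor genes of the block on the array, 5 were kept, 2 were above background on all 4 arrays and 2 on none. Of the kept genes 3 were lower and 2 higher in the value table, and Ccr9 and Cxcr6 lay within the inner stretch. Ccr9, a receptor of gut-homing lymphocytes, had table values of -1.18 and -1.04 in EV-50 and of 1.04 and 1.46 in shGR-19, a difference of 2.37 (SE 0.17). On the scanner arrays it read -5.35, -4.93, -4.83 and -4.73, a difference of 0.36, and its mean signal was 18.02 with 3 arrays above background. The size of the table difference thus was not seen in the scanner signal. Xcr1, a receptor of cross-presenting dendritic cells, read -3.00, -2.99, -2.84 and -2.78, with 0.37 (SE 0.07). Ccr3, a receptor of eosinophils at the distal edge of the block, read -4.10, -4.23, -4.41 and -4.49, with -0.03 (SE 0.16). Ccr1l1 and the scavenging receptor Ccbp2 (Ackr2 in RefSeq) gave -0.24 and -0.13, and Cxcr6 and Ccr1 were above background on no array.

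In the proximal stretch the genes well above background on all 4 arrays ran from -0.69 to 0.33 in the value table. Trak1, an adaptor of mitochondria to motor proteins, formed the proximal edge of the block and read -0.05, -0.15, -0.08 and -0.51, with -0.48 (SE 0.06). Another Trak1 probe, 19.5 kb outside the edge, had a table difference of -0.32 (SE 0.31). Vipr1, a receptor of vasoactive intestinal peptide, read -2.92, -3.53, -3.23 and -3.64, with -0.69 (SE 0.13). Trak1 and Vipr1 were the genes furthest below 0 among these 9. Higd1a, a mitochondrial protein induced by hypoxia, read 4.0, 2.98, 4.07 and 2.53, with -0.26 (SE 0.15). The Higd1a levels followed the replicate number more than the line, and so did those of Deb1 (Ss18l2 in RefSeq), which read 3.30, 2.58, 3.40 and 2.55 with a table difference of 0.0022.

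Sec22c, a protein of traffic between the endoplasmic reticulum and the Golgi, read 0.94, 0.56, 0.84 and 0.84, with 0.33 (SE 0.06). Nktr, a cyclophilin domain protein, read 1.14, 1.42, 1.11 and 1.35, with -0.05 (SE 0.06). Zfp651, a zinc finger gene, read 0.69, 0.33, 0.73 and 0.28, with 0.01 (SE 0.08). By its brightest probe, none of these 3 was lower on both shGR-19 arrays than on both EV-50 arrays. The other kept Nktr probes, with table differences of -0.74 and -0.44, were lower in this way. Lyzl4, a lysozyme-like gene, read -3.46, -3.87, -4.04 and -3.74, with -0.21 (SE 0.06). Hhatl, related to Hedgehog acyltransferase, read -4.04, -4.28, -4.20 and -4.01, with 0.25 (SE 0.14). Both were dim, with scanner levels that overlapped between the lines. Fam198a (Gask1a in RefSeq), a dim gene of Golgi-associated kinase type at the border with the inner stretch, read -5.45, -5.38, -5.28 and -5.55, with -0.58 (SE 0.24), and was above background on 3 arrays.

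Outside the block, Ctnnb1, the gene of beta-catenin, read 4.15, 4.10, 4.09 and 3.88, with a table difference of -0.43 (SE 0.07). Entpd3, an ectonucleotidase, read 1.47, 1.99, 1.42 and 2.97, with 0.98 (SE 0.05), and Ulk4, of the Ulk kinase family, read -1.10, -1.56, -1.06 and -0.73, with 0.69 (SE 0.05). Entpd3 and Ulk4 were higher on shGR-19 replicate 2 and in both shGR-19 columns. Rpl14, a ribosomal protein gene, had -0.60 (SE 0.05) and Eif1b, a translation initiation factor gene, 0.19 (SE 0.05). Neighbouring genes thus lay on both sides of 0, and 0 of their 12 kept probes were called. On the distal side Ccr2, the nearest gene at 77.7 kb from Ccr3, and AK046563 were above background on no array, and no level beyond the distal edge is given.

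Genes of the same pathways elsewhere in the genome were set beside the block genes. Of 13 kept RNA exosome genes, 13 kept mitotic kinesins, 12 kept lipolysis genes and 16 kept mitochondrial aminoacyl-tRNA synthetases, 0 were called in the value table by limma in either direction, where 2.39% of kept probes were called lower and 1.87% higher. At an unadjusted p below 0.05 there were 7, 8, 6 and 9 of them in the same order, and 11829 of the 24436 kept probes. Their median differences were -0.12, -0.30, -0.19 and -0.13, and their lowest values were -0.42, -0.73, -0.58 and -0.53. The block genes of these kinds, Exosc7 at -1.90, Kif15 at -1.53 and Abhd5 at -1.59, belong to a region picked for low values. Of 14 chemokine receptor genes elsewhere, 6 were kept and 1, Cxcr3, was called higher with 1.88. No test compared these lists with the block.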

How the data were processed

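The authors deposited, per array, spot intensity that Agilent Feature Extraction 10.5.1.1 had background-subtracted with its one-colour default settings, not scaled between arrays, and normalized log2 values from GeneSpring. Their log2 scale was read from its values, each probe is centred on its median, and which scaling preceded this is not given in the sources used here. The column medians were 0.076 and 0.038 for EV-50 replicates 1 and 2 and -0.056 and -0.063 for shGR-19 replicates 1 and 2. Columns of other samples: 0. The deposited flags gave the spots well above background and the outlier spots (74 to 139 per array), which were left out.

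Here log2 of the processed signal minus the array's 75th percentile was taken, spots of a probe were averaged, and the 24436 probes that both arrays of either line showed well above background were kept. The lines were set against each other by limma 3.58.1 in R 4.3.3 (lmFit, eBayes, Benjamini-Hochberg over all kept probes). A call needed more than 2-fold and an adjusted p below 0.01. The same fit was run on the value table and, before use, tested on simulated data. Precision is limited by the number of arrays.

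The members and lists were chosen with earlier results of these data known. Named were all block genes well above background on all 4 arrays, the genes at and next to the edges, called genes of the lists, and promoters of the 5 largest decreases. Other genes named, such as Ccr9 and AK036777, were chosen after their values were seen. Probe positions are those of mm9 in the files, and promoter positions those of GRCm38.p6, with nothing converted between them. A RefSeq gene was matched for 42 of the 58 genes. Alternatives were normexp (offset 50), quantile normalization, the percentile over detected probes, other filters, a robust prior with an intensity trend (statmod 1.5.0), a block for the replicate number, leaving out each array, an adjusted p below 0.05, averaging the probes of a gene and the value table. Alternatives on the value table and for the inner stretch were chosen after seeing the data. Of the neighbouring genes, 1 is not reported by name here.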

Additional observations from a re-analysis of the deposited data

How the results depend on the processing

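With 2 arrays per line, 0 probes were called from the scanner files by limma under each alternative run on them, and 31 to 1045 probes had an unadjusted p below 0.05. The value table gave 1042 called probes, of which 24 were block probes called lower. With all probes of the table kept these were 43 and 0. With the replicate number as a block, 0 probes were called from the scanner files and 0 from the value table. The medians did not move. In that limma fit of the value table, 42 of the 59 block probes and 12085 of the 24436 kept probes had an unadjusted p below 0.05. Without the replicate number in the fit these were 41 and 11829. Replicate numbers are shared only as numbers; the deviations of same-numbered arrays correlated with r = 0.652 in the scanner files and 0.109 in the value table. Leaving out each column in turn gave 0 to 0 called probes in the table and 0 to 0 in the block; the spread of the lone array was taken from the other line.

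The median of all block genes on the scanner arrays was -0.50. It was -0.068 with normexp and -0.17 with quantile normalization, and -0.78 to -0.0060 with an array left out, the latter without shGR-19 replicate 2. It was -0.12 without EV-50 replicate 1. That of the inner stretch was -0.67, -0.36 with normexp, and -1.22 to -0.010 with an array left out, again the latter without that array. In the table the block median was -0.30, and -1.06 over genes well above background on all 4 arrays, -0.58 over kept genes, -0.38 when the probes of a gene were averaged and -0.38 to -0.27 with a column left out (-0.37 without EV-50 replicate 2). That of the inner stretch was -1.15, and -1.42 over genes well above background on all 4 arrays, -1.41 over kept genes and -1.22 to -1.06 with a column left out. The median of the neighbouring genes, -0.13 on the scanner arrays, ran from -0.26 to 0.11, so that its sign was not fixed. The causes were not tested. Of the 34 genes with values above, 15 moved by more than the spread between replicates when the value table replaced the scanner files, and 2 each with normexp and quantile normalization. Keeping all probes could not change medians already taken over all genes. Of the 58 genes, 14 were above background on no array, and their differences limit the medians over all genes.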
